A study of Mus musculus with 4 samples.

Results

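Levels of 8 transcription factor genes that mark the jaws, pharyngeal arches and oral ectoderm were compared in the frontonasal prominence (FNP), the embryonic tissue of the nose and snout, between 2 Smchd1 genotypes. The 8 genes, of 33708 autosomal genes in the table, were Pitx1, Pitx3, Lhx6, Lhx8, Gsc, Barx1, Hand1 and Hand2. They were chosen by name for their role, with the WT and MD43 values of these same libraries known. Their differences between the genotypes are therefore given as a description, without a test.

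The study sequenced poly(A) RNA from the FNP of 4 FVB/NJ mouse embryos at E10.5 and 29 somites, 2 of them Smchd1+/+ (WT) and 2 Smchd1MommeD43/MommeD43 (MD43). MommeD43 is a chemically induced missense allele of Smchd1, which encodes a chromatin protein with a role in gene silencing, and every cell of an MD43 embryo carries it. The WT embryos are labelled 1 female and 1 male, and both MD43 embryos are labelled male. Another record of the study names the WT male as female, in which case sex and genotype cannot be told apart. The table holds 1 merged log2 RPKM value per genotype (reads scaled to transcript length and library size), so the spread between the 2 embryos of a genotype is unknown.

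The facial prominences of the embryo carry different sets of transcription factors. The frontonasal prominence is built by neural crest cells around the nasal pits and the forebrain, while the maxillary and mandibular prominences come from the first pharyngeal arch. Along the arch, endothelin and BMP signals from the distal tip set a mandibular programme in which the bHLH factors HAND1 and HAND2 act, and FGF8 from the oral ectoderm sets up LHX6, LHX8, BARX1, PITX1 and GSC in the mesenchyme beneath it. Of these factors, LHX6 and LHX8 also mark the young medial ganglionic eminence of the forebrain, and PITX1 the pouch of oral ectoderm that forms the pituitary. PITX3 is known from the lens and midbrain dopamine neurons.

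Reads are given as the geometric mean over the 2 libraries of a genotype. Of the 8 genes, 5 reached 10 reads in both genotypes, and the other 3 in neither. The 5 were Pitx1 and Gsc, higher in MD43, and Lhx6, Lhx8 and Barx1, lower in MD43. Each of the 5 differed by at least 2-fold. Of all 15377 genes that reached 10 reads in WT or MD43, here called used, 632 (4.11%) differed at least 2-fold, 252 (1.64%) higher in MD43 and 380 (2.47%) lower. Because the 5 genes were chosen with these values known, nothing is read from the size of their share. Pitx3, Hand1 and Hand2 had too few reads for a fold change with an error.

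The share of genes past 2-fold depended on reads. It was 16.9% of the 2797 genes with 10 to 50 reads, where Gsc and Barx1 lie, 4.04% of the 3071 with 50 to 250, where Lhx6 and Lhx8 lie, and 0.610% of the 4265 with 250 to 1000, where Pitx1 lies. The larger of a gene's 2 genotype values set its class.

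The promoters of Lhx8 and Gsc are shown because each of these genes starts back to back with a non-coding gene, AI606473 at Lhx8 and Gm10000 at Gsc. Both windows run from 250 bases before to 50 after the RefSeq start on the minus strand, written 5' to 3' on GRCm38.p6. Capitals mark the bases upstream of the GENCODE gene model.
Lhx8, chr3:154330511-154330810: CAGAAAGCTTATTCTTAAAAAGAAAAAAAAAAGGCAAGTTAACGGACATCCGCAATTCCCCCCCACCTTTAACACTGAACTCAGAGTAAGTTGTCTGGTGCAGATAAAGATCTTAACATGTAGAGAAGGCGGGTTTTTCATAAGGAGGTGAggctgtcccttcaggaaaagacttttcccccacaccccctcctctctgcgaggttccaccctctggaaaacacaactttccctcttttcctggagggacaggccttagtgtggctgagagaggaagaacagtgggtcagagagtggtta
Gsc, chr12:104473187-104473486: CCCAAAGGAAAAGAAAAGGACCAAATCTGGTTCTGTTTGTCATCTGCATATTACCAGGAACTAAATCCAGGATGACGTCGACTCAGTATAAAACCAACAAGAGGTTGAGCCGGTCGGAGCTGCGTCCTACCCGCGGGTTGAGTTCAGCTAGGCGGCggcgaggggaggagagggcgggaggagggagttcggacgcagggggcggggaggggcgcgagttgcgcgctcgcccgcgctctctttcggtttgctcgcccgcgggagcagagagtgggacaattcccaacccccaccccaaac
In the Lhx8 window the 151 capital bases lie in the gap of 161 bp between Lhx8 and AI606473. In the Gsc window the 156 capital bases lie within Gm10000.

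The Lhx8 window was poor in CG, with 4 CG dinucleotides and a GC content of 47.0%, against a median of 7 and 52.7% over 32817 windows. The Gsc window held 25 CG at 60.3% GC, and that of Barx1, on chr13:48662786-48663085, 50 CG at 84.7% GC. Searched on both strands were the PITX and GSC core TAATCC, the LIM homeodomain core TAATTA, the bHLH core CANNTG and the TATA sequence TATAAA. The first pair of motifs share their opening bases. The 4 occurred in 7.06%, 5.30%, 72.3% and 13.6% of all windows. None was in the Lhx8 or Barx1 window, while the Gsc window held 1 TATAAA and 1 CANNTG. Among the 6 genes with an entry, the LIM core was found in the window of Hand2 alone and the PITX core in none. Pitx1 and Hand1 had no entry.

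Pitx1, a homeodomain factor of the oral ectoderm, mandible and hindlimb (ENSMUSG00000021506, chr13:55825051-55836192), was the most abundant of the 8 in both genotypes. Its level was 2.38 log2 RPKM in WT and 3.42 in MD43, which is 5.19 and 10.7 RPKM. This was 2.07-fold higher in MD43, a log2 difference of 1.05 ± 0.08. The error here and below is a counting SE and a lower limit, since it leaves out the spread between embryos. Pitx1 stood at percentile 50.4 of all used genes in WT and 68.3 in MD43, so it moved from the middle of the expressed genes into the upper part.

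Gsc (goosecoid), a homeodomain repressor of arch and nasal mesenchyme (ENSMUSG00000021095, chr12:104471209-104473330), was the other gene higher in MD43. Its level was -0.56 log2 RPKM in WT and 0.76 in MD43, which is 0.677 and 1.69 RPKM. The log2 difference was 1.32 ± 0.31, or 2.50-fold. It exceeded that of Pitx1 by 0.27 ± 0.32, less than its counting error.

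Lhx8, a LIM homeodomain factor of the arch mesenchyme that takes part in tooth and palate growth (ENSMUSG00000096225, chr3:154306294-154330659), had the widest difference of the 5. Its level was 1.31 log2 RPKM in WT and -0.67 in MD43, which is 2.48 and 0.628 RPKM. This was 3.95-fold lower in MD43, a log2 difference of -1.98 ± 0.20. Lhx8 dropped from percentile 34.6 of the used genes to 16.1.

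Lhx6, its close relative with an overlapping pattern in the first arch (ENSMUSG00000026890, chr2:36081953-36105408), stood at -0.14 log2 RPKM in WT and -1.69 in MD43. The log2 difference was -1.55 ± 0.22, or 2.93-fold lower. The difference of Lhx8 was more negative than that of Lhx6 by 0.43, with a counting SE of 0.29. Both LIM factors were thus lower in MD43, and the gap between their differences was larger than its counting SE but within 2 of them.

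Barx1, a homeodomain factor of proximal arch mesenchyme and molar tooth fields (ENSMUSG00000021381, chr13:48662998-48666507), stood at 0.51 log2 RPKM in WT and -0.79 in MD43. The log2 difference was -1.30 ± 0.30, or 2.46-fold lower. At 31.9 and 18.0 reads it had the fewest reads of the 3 lower genes.

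**Figure D1:**
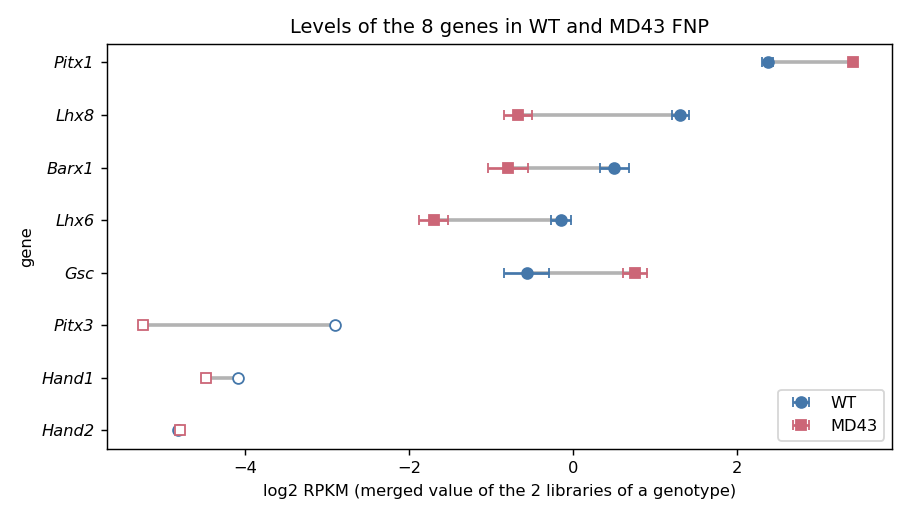
Level of each gene on the x axis, as merged log2 RPKM, in WT (circles) and MD43 (squares), with 1 row per gene. Filled points have at least 10 reads and a bar of 1 counting SE, open points have fewer. Pitx1 and Gsc lie to the right in MD43 (3.42 and 0.76), Lhx8, Barx1 and Lhx6 to the left, and Pitx3, Hand1 and Hand2 lie below -2.8 in both genotypes.

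The order of levels differed between the genotypes. In WT it ran Pitx1, Lhx8, Barx1, Lhx6 and Gsc, with gaps between neighbours of 1.07 ± 0.12, 0.80 ± 0.21, 0.65 ± 0.22 and 0.42 ± 0.30 on the log2 RPKM scale. In MD43 it ran Pitx1, Gsc, Lhx8, Barx1 and Lhx6, with gaps of 2.66 ± 0.15, 1.43 ± 0.23, 0.12 ± 0.30 and 0.90 ± 0.30. Gsc was thus last of the 5 in WT and second in MD43. Lhx6 and Gsc in WT, and Lhx8 and Barx1 in MD43, lay within 2 counting SE of each other.

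Pitx3 (ENSMUSG00000025229, chr19:46135685-46148326) had 12 reads in 1 WT library and 0 in the other, and 0 in both MD43 libraries. Its WT value of 3.29 reads rests on the 0.9 reads given to the library without reads, so no lower limit of a fold is given. A genotype at or under 3 reads is taken to be at the floor. All WT reads came from 1 embryo, so the 2 WT embryos differed from each other as well.

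Hand1 (ENSMUSG00000037335, chr11:57828705-57832818) had 0 and 4 reads in WT and a product of 4 in MD43, that is 1 and 4 or 2 and 2 reads. Hand2 (ENSMUSG00000038193, chr8:57320983-57324633) had 0 and 2 reads in WT and 0 and 4 in MD43. Both are factors of the distal mandible and the heart, and both were at or under the floor in each genotype, so no fold is given. The distal mandibular factors of the set were thus near absent from this tissue, while Pitx1 and Lhx8 were well above the floor.

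What single embryos contributed can be narrowed from the merged values. A merged value fixes the 2 libraries' reads multiplied together, called the product here, and a product splits into whole numbers in few ways. Pairs up to 8-fold apart are given. They are raw reads. Depth was 1.39 times larger in MD43, so overlap is judged after the MD43 counts are divided by that ratio. The depths of single libraries, and which embryo a count belongs to, are not known. Among genes with 1 possible pair and a product of 1000 to 10000, the 2 libraries differed by a median of 1.74-fold in WT (367 genes) and 1.61-fold in MD43 (349 genes).

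For Pitx1 the only MD43 pair was 547 and 739 reads, and the WT pairs were 83 and 590, 118 and 415, or 166 and 295. At WT depth the MD43 pair is 393 and 531, which overlaps with the first 2 WT pairs and lies above both counts of the third. Pitx1 has the least certain product of the 5 in MD43, since 94.5% of products of that size could be resolved into reads, against 99.8% of smaller ones.

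For Gsc the only MD43 pair was 29 and 79 reads, and WT had 10 and 19 or 5 and 38. At WT depth the MD43 pair is 20.9 and 56.8, which lies above both WT counts under 10 and 19 and overlaps under 5 and 38. The 2 MD43 libraries were themselves 2.72-fold apart, just inside the 95th percentile of 2.78 for MD43 genes of that size.

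For Barx1 the only MD43 pair was 13 and 25 reads, or 9.35 and 18.0 at WT depth. The 5 WT pairs ran from 30 and 34 to 12 and 85, of which 2 (30 and 34, 20 and 51) lay above both MD43 counts and 3 overlapped. For Lhx6 the 3 MD43 pairs ran from 25 and 44 to 20 and 55, and the 5 WT pairs from 58 and 84 to 28 and 174. At WT depth the highest MD43 count is 39.5, so 3 of the WT pairs (58 and 84, 56 and 87, 42 and 116) lay above every MD43 count and 2 overlapped.

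For Lhx8 the 5 WT pairs ran from 94 and 108 to 36 and 282, and the 8 MD43 pairs from 35 and 36 to 14 and 90. At WT depth the highest MD43 count is 64.7, so 2 of the WT pairs (94 and 108, 72 and 141) lay above every MD43 count, and the other 3 overlapped with some MD43 pairs. For none of the 5 genes did the pairs show that the genotypes were separate in every case.

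**Figure D2:**
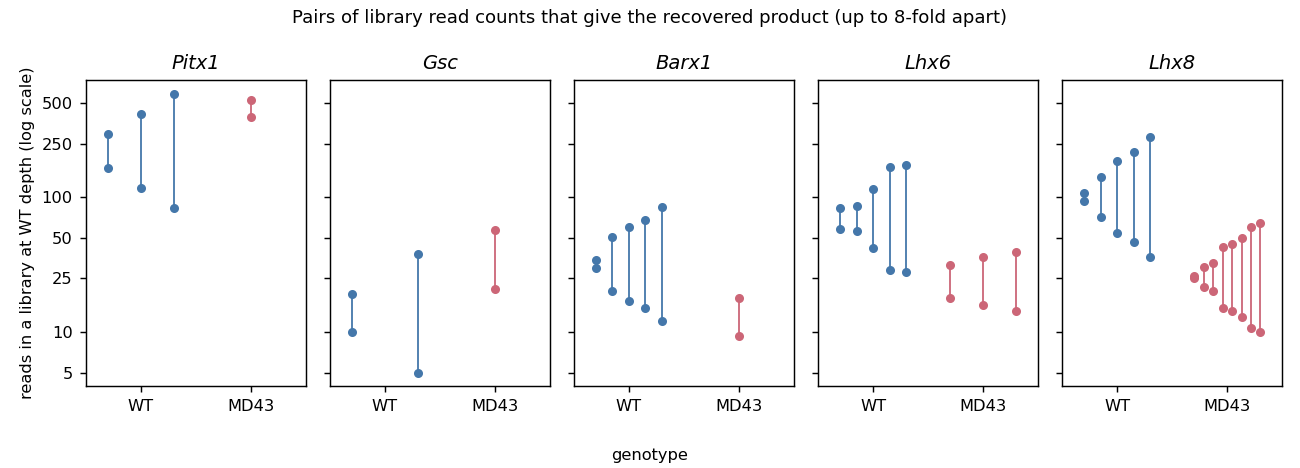
Pairs of single-library read counts, up to 8-fold apart, that give the recovered product, with reads on a log y axis (MD43 reads divided by 1.39, to WT depth) and the genotype on the x axis. Each line joins the 2 libraries of 1 possible pair, and only 1 of the pairs of a genotype can be true. Pitx1, Gsc and Barx1 have 1 pair in MD43 (393 and 531, 20.9 and 56.8, 9.35 and 18.0 at WT depth), and Lhx8 has 8.

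**Figure D3:**
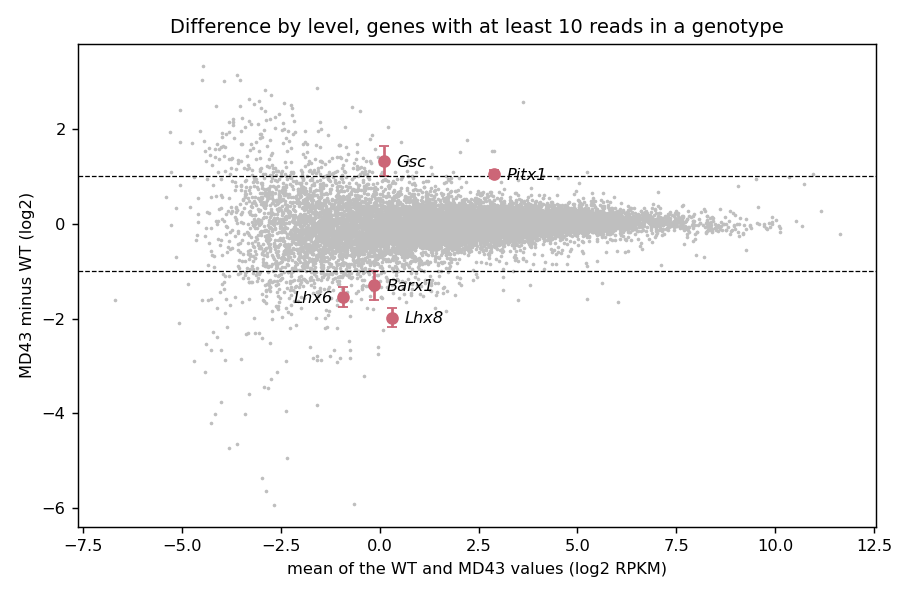
MD43 minus WT (log2) on the y axis against the mean of both values (log2 RPKM) on the x axis, for the 15377 genes that reached 10 reads. The 5 named genes carry bars of 1 counting SE and the dashed lines mark a 2-fold difference. Pitx1 lies at a level where few genes pass the lines, while Gsc, Barx1, Lhx6 and Lhx8 lie where the cloud is wider.

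Genes within 100 kb of the 5 genes were looked at next. Of 10 neighbours with at least 10 reads, 2 were past 2-fold, and both lie beside Lhx8. The share past 2-fold was 4.11% of all used genes and 16.9% of those with 10 to 50 reads, the class of these 2. AI606473, the non-coding gene that starts 162 bp from the Lhx8 start on the other strand (chr3:154330821-154334254), had 26 and 67 reads in WT, the only pair, and 0 and 4 in MD43. It was at least 19.3-fold lower in MD43. AI606473 reached 10 reads in WT alone, where it is higher, so the filter fixes its direction, which carries no weight. Slc44a5, a choline transporter-like gene 34571 bp beyond the 3' end of Lhx8, had 37.7 reads in WT and 22.6 in MD43, a log2 difference of -1.21 ± 0.27. Lhx8 and AI606473 do not overlap. Whether the counting took account of strand is not given in the sources used here.

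Of the neighbours of the other 4 genes, none that reached 10 reads was past 2-fold. At Lhx6, Ndufa8, Rbm18 and Mrrf lay between -0.14 and 0.08, and Gm13429, with 1.34 reads in WT and 8.49 in MD43, was at least 2.03-fold higher. At Barx1, Ptpdc1 had a log2 difference of -0.44 ± 0.09. At Pitx1, the antisense gene Gm47071, which overlaps it, had 4.69 log2 RPKM in both genotypes (-0.00 ± 0.04), and its 1283 and 1779 reads outnumbered those of Pitx1. A lincRNA on the same strand, Gm28760, starts 97 bp from the Pitx1 start and had 1.41 reads in WT and 9.49 in MD43, at least 2.27-fold higher. Gm28760 and Gm13429 did not reach 10 reads in either genotype. A further non-coding gene, 4930451E10Rik, had 0.80 ± 0.53 on 5.29 and 12.8 reads. It reached 10 reads in MD43 alone, where it is higher, so its direction carries no weight. Where models overlap, reads of the 2 genes cannot be told apart without the counting rules. The back-to-back partner of Gsc, Gm10000, starts 1 bp from it and was under the floor, with 1.64 and 2.32 reads.

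**Figure D4:**
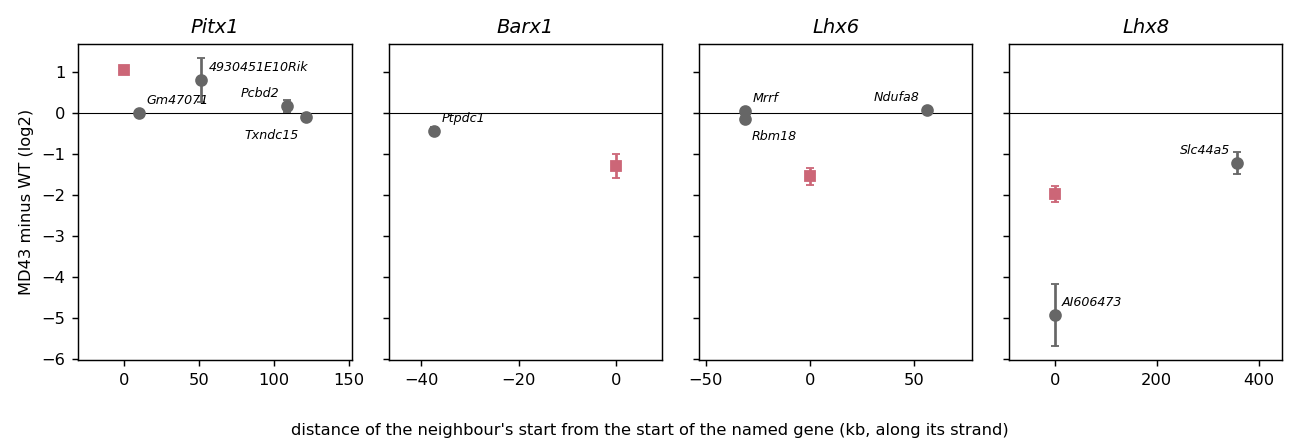
MD43 minus WT (log2, bars 1 counting SE) of neighbours that reached 10 reads (grey) and of the named gene (square), against the distance between starts in kb along the strand of the named gene. AI606473 is drawn at its deposited value and is at least 19.3-fold lower. At Lhx8 both neighbours lie below -1, and at Lhx6 they lie near 0.

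The pathway around these factors was read from 4 lists, each set beside a median of 0.01 over all used genes, of which 48.8% were lower in MD43. Of the 9 arch signal genes, 4 were higher, 5 lower and none past 2-fold, with a median log2 difference of -0.34. Ptch1, the hedgehog receptor and target, had -0.53 ± 0.03. Edn1, the endothelin ligand of the distal arch, had -0.37 ± 0.44 on 10.6 and 11.4 reads. Fgf8, the ectodermal signal upstream of the LIM factors, had -0.34 ± 0.07, and Fgfr1, with the most reads, 0.05 ± 0.03.

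Of 11 distal arch factors that reached 10 reads, out of 12, 8 were higher and 3 lower, with a median of 0.27. The 1 gene past 2-fold was Dlx4, a distal-less homeodomain factor, at 1.15 ± 0.63 on 3.46 and 10.7 reads. Dlx4 reached 10 reads in MD43 alone, where it is higher, so its direction carries no weight. Foxf1, a forkhead factor, had 0.71 ± 0.16, and Msx1, the BMP target with the most reads, -0.17 ± 0.03. Among 7 proximal arch factors none was past 2-fold, with a median of 0.01. Nr2f2 (COUP-TFII), a nuclear receptor of the maxillary mesenchyme, had -0.95 ± 0.04, Dlx1 -0.80 ± 0.08 and Pou3f3 0.16 ± 0.03.

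Relatives and partners of the 8 proteins showed no 2-fold difference in any of the 11 genes that reached 10 reads, with 4 higher, 7 lower and a median of -0.17. Twist2, a bHLH relative of the HAND proteins, had -0.71 ± 0.16, and Lhx9, another LIM factor, -0.51 ± 0.17. Tcf3, an E protein that pairs with bHLH factors, had 0.12 ± 0.02. Ldb1, the cofactor that LIM factors need, had 0.03 ± 0.02. Barx2 had -0.38 ± 0.21. Gsc2, a relative of Gsc, was at or under the floor in both genotypes.

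**Figure D5:**
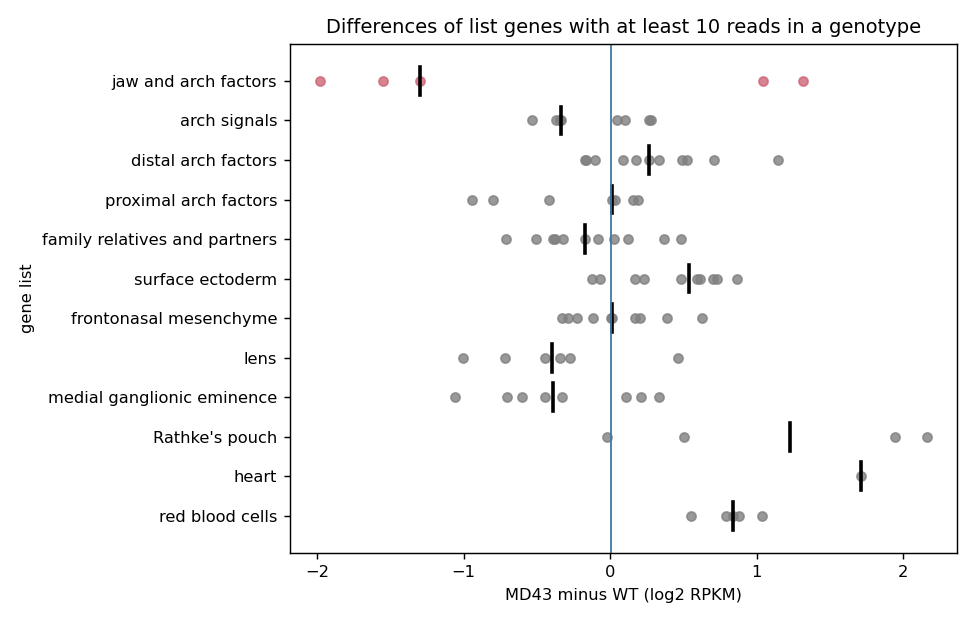
MD43 minus WT (log2 RPKM, as deposited) on the x axis for the 5 jaw and arch factors that reached 10 reads and the genes of 11 lists on the y axis. Each point is a gene, the black bar the median of a list and the vertical line the median of all used genes (0.01). The jaw and arch factors, chosen with these values known, run from -1.98 to 1.32, and the surface ectoderm and red blood cell medians are 0.54 and 0.84.

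Fewer cells of a type and less RNA per cell cannot be told apart in these bulk libraries, and markers of cells that use the 8 genes differed between the genotypes in some lists. Their part in the differences was not tested. The FNP itself was well marked, since 10 frontonasal mesenchyme genes summed to 568 RPM (reads scaled to library size alone) in WT and 577 in MD43, with 6 higher, 4 lower and a median of 0.01. Pax7 had 0.39 ± 0.06 and Alx4 0.01 ± 0.03. Per the study's methods, the tissue was cut along its border with the maxillary prominence, and it is background knowledge that this prominence uses Lhx6, Lhx8, Barx1 and Pitx1.

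Surface ectoderm markers, from the layer that also makes Pitx1 in the mouth, were higher in MD43 in 8 of 10 genes, with a median of 0.54 and a sum of 303 RPM in WT and 450 in MD43. None was past 2-fold. Cldn6 had 0.87 ± 0.05, Cdh1 0.73 ± 0.05 and Krt8 0.70 ± 0.04.

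Rathke's pouch, the pituitary primordium, was read from 7 genes, of which 4 reached 10 reads. Of these, Lhx3, Hesx1 and Lhx4 did so in MD43 alone, where they are higher, so the filter fixes their direction and the median of 1.23 (1.04 with genes at the floor set to their bound) carries no weight. With no filter it was -0.02, and with a pseudocount of 1 RPKM 0.13. Lhx3 had 0 and 6 reads in WT against 14.5 in MD43, at least 3.47-fold higher, and Hesx1 0 and 6 against 12.4, at least 2.98-fold higher. Lhx4 had 7.07 and 14.0 reads. Six6, with the most reads, had -0.02 ± 0.10, and the list summed to 12.2 and 13.2 RPM. Pou1f1, a later pituitary factor, had no reads.

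Markers of the medial ganglionic eminence, the forebrain domain of Lhx6 and Lhx8, summed to 260 RPM in WT and 269 in MD43. Of 8 genes 3 were higher and 5 lower, with a median of -0.39. Gsx1 had -1.06 ± 0.31 and Olig1 -0.71 ± 0.18. Nkx2-1, the defining factor of this domain, had -0.45 ± 0.06.

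Lens markers, which bear on Pitx3, were lower in 5 of the 6 genes that reached 10 reads, of 10 listed, with a median of -0.39 and a sum of 195 RPM in WT and 155 in MD43. The sum was mostly Pax6 and Six3, with 1951 and 698 reads in WT, while Cryab, the crystallin with the most, had 89.0. Crybb3, with 11.5 and 8 reads, was past 2-fold, with a counting SE of 0.47 on the log2 scale. It is counted among the 5 lower genes, but had enough reads in WT alone, so the filter fixes its direction, which carries no weight. A filter of 50 reads, which leaves Crybb3 out, gave a list median of -0.35. Prox1 had -0.72 ± 0.12 and Pax6 -0.35 ± 0.03. The 1 higher gene was Cryab, a small heat shock protein, at 0.46 ± 0.13. Of the genes under 10 reads, Cryba1 had 1.34 reads in WT and 3.46 in MD43, at least 1.20-fold higher. Foxe3, a lens-defining factor, had a WT product of 28 and no reads in MD43, at least 2.45-fold lower. Cryaa had 0 and 16 reads in WT and 0 in both MD43 libraries, and as for Pitx3 no lower limit of a fold is given. Pitx3, Foxe3 and Cryaa had no reads in either MD43 library, but Pitx3 and Cryaa also had 0 reads in 1 WT library.

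Heart markers, relevant to Hand1 and Hand2, were near 0. Of 8 genes 1 had enough reads, Myh7, at 2.85 reads in WT and 13.0 in MD43, at least 3.11-fold higher. Myh7 had enough reads in MD43 alone, where it is higher, so its direction carries no weight. Nkx2-5, the defining heart factor, had no reads. Red blood cell genes were higher in all 5 of those measured, with a median of 0.84 and a sum of 2037 and 3844 RPM. Hbb-bh1, an embryonic globin, had 1.04 ± 0.01 and Klf1, its activator, 0.88 ± 0.19. Smchd1 itself, whose MD43 allele is missense, had 3.31 log2 RPKM in WT and 3.30 in MD43, so its level does not check the labels.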

How the data were processed

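The deposited table holds 1 log2 RPKM value per gene and genotype. Per the labels and methods, the authors trimmed reads (Trim Galore 0.4.4), mapped them with HISAT2 2.0.5 to GRCm38.p6, and quantified them in SeqMonk with sex chromosomes left out. Its fold change, FDR and mean columns hold the authors' own comparison and were not used.

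Of 33708 rows, 33101 matched GENCODE M21. Each value averages the log2 RPKM of 2 libraries, from which their reads multiplied together were recovered, taking a library without reads as 0.9 reads. Products of 1 to 1000 could be resolved in 99.8% of cases, either within 0.1 of a whole number or as a multiple of 0.9. Implied depth was 16055882 reads per library in WT and 22328791 in MD43. Errors are the smallest counting SE and n = 2 libraries a genotype. The 15377 genes that reached 10 reads in WT or MD43 were used.

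The 8 genes, the lists and the 8-fold limit on pairs were chosen with earlier results of these data known. In each list, the 2 used genes with the largest difference and the 1 with the most reads are named, with further genes named for their role after their values were seen. Some listed genes are not reported here. Alternatives were pseudocounts, centring, filters, the fold threshold and a correction for GC content and length. Recovery was tested on simulated data. Promoters came from RefSeq (GRCm38.p6).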

Additional observations from a re-analysis of the deposited data

How the results depend on the processing

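Over 20 alternative values of the 5 genes' differences none changed direction, and 16 stayed within the 95% counting interval of the main value. The other 4 came from a pseudocount of 1 RPKM, with Lhx6 at -0.54, Lhx8 at -1.10, Gsc at 0.68 and Barx1 at -0.62, since these genes lie near or under 1 RPKM. Across alternatives Pitx1 ran from 0.92 to 1.04, Gsc from 0.68 to 1.31, Lhx8 from -1.99 to -1.10, Lhx6 from -1.57 to -0.54 and Barx1 from -1.37 to -0.62. The count of these genes past 2-fold, 5, was 1 with a pseudocount of 1 RPKM (Lhx8), 3 of the 3 left by a filter of 50 reads (Pitx1, Lhx6 and Lhx8), 6 with no filter (adding Pitx3) and 4 after correction for GC content and length (Pitx1 at 0.99). The share of all genes past 2-fold, 4.11%, was 1.99% with a pseudocount of 0.1 RPKM, 0.26% with 1 RPKM, 1.26% with a filter of 50 reads, 6.34% with no filter and 10.7% at 1.5-fold. Of those past 2-fold, 39.9% were higher in MD43, against 22.5% with a pseudocount of 1 RPKM and 24.7% with a filter of 50 reads. Of 59 alternative list medians 57 kept their direction, while that of Rathke's pouch was -0.0205 with no filter (main value 1.23), which adds genes without reads, and that of the proximal arch factors -0.0223 after the GC correction (main value 0.01), where the cause was not tested. No paired analysis was possible because libraries were merged to 1 value per genotype, and for the same reason no replicate was left out and neither edgeR nor DESeq2 was run. Depth limits Pitx3, Hand1 and Hand2, and low reads widen the errors of Gsc and Barx1.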
